A study of Mus musculus with 12 samples.

Results

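The 40 genes described here drive cell division: 18 are S phase and replication genes and 22 are G2 and M phase (G2/M) genes. They were chosen by symbol for their known roles in the cell cycle, with earlier results of these data known, and all 40 were found among the 27179 genes of the count table and passed the filter on low counts, which 14182 genes passed. The S set holds Ccne1, Ccne2, Cdk2, E2f1, Cdc6, Cdt1, Gins2, Mcm2, Mcm3, Mcm4, Mcm5, Mcm6, Mcm7, Pcna, Rrm1, Rrm2, Tyms and Uhrf1. The G2/M set holds Ccna2, Ccnb1, Ccnb2, Cdk1, Cdc25c, Plk1, Aurka, Aurkb, Birc5, Bub1, Bub1b, Cdc20, Ube2c, Cenpe, Cenpf, Kif11, Kif20a, Kif23, Tpx2, Nusap1, Top2a and Mki67. The libraries hold RNA of natural killer (NK) cells, cytotoxic innate lymphocytes, sorted on day 21 from pancreatic tumours grown in wild type (WT) mice. The 12 libraries formed 4 groups of 3. Control mice are labelled IgG. The second group received cGAMP, a cyclic dinucleotide that activates the STING adaptor, at 10 µg intravenously in 4 injections. The third group received an antibody that blocks the cytokine IL-35, at 200 µg intraperitoneally in 3 injections, and the fourth (the combination) received both agents. Both courses began 8 days after the tumour cells were given, with injections 3 days apart. PBS is named as the alternative to cGAMP, but the sources used here do not give which groups received it, the IgG dose, the tumour line, the age of the mice or the sort gate.

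Cells copy their DNA in S phase and segregate it in M phase, and each step uses its own set of transcripts. E2F factors switch on replication genes as cells leave G1, while the DREAM and MMB complexes, which bind a CHR promoter element (cell cycle genes homology region), restrict many mitotic genes to G2 and M. NK cells divide in response to cytokines such as IL-15, and transcripts of both sets are read as marks of dividing cells. In bulk RNA, fewer dividing cells and less RNA per dividing cell cannot be told apart.

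Library totals ran from 12811353 to 22217766 assigned reads, and counts of a member in a library ran from 6 (Cdc25c) to 3992 (Mki67). Levels are read counts scaled to library size after TMM normalization (CPM), and changes are log2 fold changes ± SE. A gene was called when edgeR's quasi-likelihood test gave a Benjamini-Hochberg adjusted p under 0.05 over all genes tested. The labels do not say whether each library is a separate animal, and p-values therefore measure only how far these libraries scatter, which can be technical. All 16 NK markers were detected and summed to between 6395 and 7699 CPM. Markers of other cells were detected too: summed over their lists, B cell markers stood at 6059 to 15468 CPM, mature neutrophil markers at 3666 to 16946 CPM and macrophage and monocyte markers at 4042 to 5170 CPM. Tumour epithelial markers summed to 21.5 to 35.3 CPM and fibroblast markers to 2.67 to 5.87 CPM, with the collagen-binding proteoglycan gene Lum at 0.

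Promoter stretches are shown for Mki67, Ccnb2 and Kif23, the mitotic members called for anti-IL-35 against IgG and for the combination against both IgG and cGAMP, and for Uhrf1, a replication member with E2F letters. Sequences are from RefSeq promoter windows of build GRCm38.p6, which run from 250 bases before the start to 50 bases after it and were found for 32 members. No window is shown for Ccne2, Mcm4, Gins2, Ccna2, Cdc25c, Aurkb, Kif20a and Tpx2. The first 4 stretches read along the gene. Capitals mark CHR letters (TTTGAA) and CCAAT boxes (CCAAT, or ATTGG on the other strand) in the G2/M members, and only the E2F letters (TTTCGCGC) in Uhrf1.
Mki67, chr7:135716438-135716567, minus strand: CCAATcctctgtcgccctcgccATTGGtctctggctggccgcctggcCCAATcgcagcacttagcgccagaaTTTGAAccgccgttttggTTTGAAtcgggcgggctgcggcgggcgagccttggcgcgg
Ccnb2, chr9:70421555-70421684, minus strand: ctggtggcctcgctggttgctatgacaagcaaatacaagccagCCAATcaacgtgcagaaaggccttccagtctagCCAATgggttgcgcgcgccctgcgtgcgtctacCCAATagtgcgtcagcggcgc
Kif23, chr9:61946800-61946929, minus strand: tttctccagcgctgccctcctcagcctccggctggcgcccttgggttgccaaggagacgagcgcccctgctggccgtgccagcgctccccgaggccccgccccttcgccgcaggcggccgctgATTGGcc
Uhrf1, chr17:56304128-56304257, plus strand: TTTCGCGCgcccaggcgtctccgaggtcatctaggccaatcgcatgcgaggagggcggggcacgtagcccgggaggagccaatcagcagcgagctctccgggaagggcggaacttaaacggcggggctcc
The 3 CCAAT boxes of Ccnb2 lie 87, 54 and 21 bases before the start, 33 bases apart. In Mki67, the CHR letters occur 116 and 98 bases before the start, downstream of 3 CCAAT boxes. In Uhrf1, the E2F letters begin 185 bases before the start. Positions count from the start that a window was built on, which can lie inside the gene. It does so for Mki67 (gene at chr7:135689784-135716450) and Uhrf1 (gene at chr17:56303337-56323486).

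To compare sites between members, the CHR letters nearest the start are set below in 30 bases of the strand that carries them. Shown are the 9 G2/M members with CHR letters that were called in any comparison, with only the CHR letters in capitals. These 30-base lines were chosen after the values were seen.
Ccnb2, chr9:70421533-70421562, minus strand: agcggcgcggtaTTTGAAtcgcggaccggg
Cdk1, chr10:69352910-69352939, minus strand: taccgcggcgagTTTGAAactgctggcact
Plk1, chr7:122159453-122159482, plus strand: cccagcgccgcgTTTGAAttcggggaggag
Aurka, chr2:172370521-172370550, minus strand: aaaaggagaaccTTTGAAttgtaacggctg
Cdc20, chr4:118437344-118437373, minus strand: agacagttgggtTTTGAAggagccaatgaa
Ube2c, chr2:164769888-164769917, minus strand: ccgccgcccgcgTTTGAAttgcaaccctcc
Kif23, chr9:61946780-61946809, minus strand: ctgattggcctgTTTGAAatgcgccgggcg
Top2a, chr11:99024195-99024224, plus strand: tccctagtttcaTTTGAAcctttatctagc
Mki67, chr7:135716460-135716489, minus strand: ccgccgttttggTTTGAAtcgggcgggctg
The sites begin between 98 bases before the start (Mki67) and 33 bases after it (Aurka), and 4 of the 9 lie after the start. Each position counts from the start of its own window, which for Mki67 and Aurka (gene at chr2:172356190-172370886) lies inside the gene. For the replication set, 7 E2F sites are shown in the same layout, whether or not the member was called. Cdt1 also holds E2F letters, but too near the edge of its window to show 30 bases.
Cdk2, chr10:128705173-128705202, plus strand: agctgcacaacTTTCCCGCagttcctggtt
Cdc6, chr11:98908002-98908031, minus strand: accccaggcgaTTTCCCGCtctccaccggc
Mcm3, chr1:20820275-20820304, plus strand: acttcccaagtTTTCCCGCcacggaagttt
Mcm5, chr8:75109349-75109378, minus strand: aggctggacgtTTTGGCGCgaaagttcttg
Mcm6, chr1:128359734-128359763, minus strand: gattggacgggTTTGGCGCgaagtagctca
Mcm7, chr5:138171849-138171878, minus strand: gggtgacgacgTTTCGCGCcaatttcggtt
Uhrf1, chr17:56304117-56304146, plus strand: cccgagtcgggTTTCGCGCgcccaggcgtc

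The letters searched were TTTCGCGC, TTTGGCGC, TTTCCCGC and TTTGCCGC for E2F, TTTGAA and TTCGAA for the CHR, and CCAAT, on both strands. TTCGAA is its own reverse complement, and 1 overlap between motifs of different kinds occurred in the members (E2F and CCAAT letters in Mcm7). Each gene counted once, with letters in any of its windows, and members had 1 or 2 windows. E2F letters stood in 8 of 15 S members (53.3%) and in 1 of 17 G2/M members (5.88%, Cdk1), against 2.6% of 27025 genes with a window. CHR letters stood in 13 of 17 G2/M members (76.5%) and in 2 of 15 S members (13.3%), against 21.7% of all genes. CCAAT boxes were common in both sets, at 88.2% of G2/M and 66.7% of S members against 41.1% of all genes. All 13 G2/M members with CHR letters also held a CCAAT box, though in a member with 2 windows these may lie in different windows. Of the 8 G2/M members called with anti-IL-35 against IgG, 7 held CHR letters, as did 6 of the 9 G2/M members with a window that were not called. A match describes the letters of this window and is not evidence of a bound factor.

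**Figure D1:**
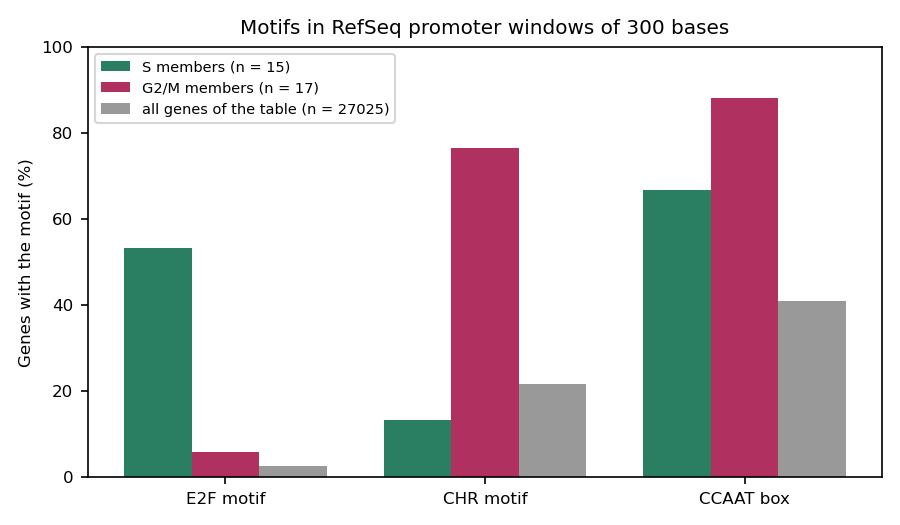
Share of genes (%, vertical axis) with E2F letters, CHR letters or a CCAAT box in any of their promoter windows, for 15 S members, 17 G2/M members and 27025 genes. E2F letters were most frequent in S members (53.3%) and CHR letters in G2/M members (76.5%).

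Per kilobase of exon, transcripts of the replication set were more abundant than those of the mitotic set, with medians of 11.0 and 5.55 CPM per kb. Pcna, the sliding clamp of DNA polymerases, had the highest level at 62.5 CPM per kb as a mean of 12 libraries. It was followed by Mcm6 (28.6 CPM per kb), Mcm4 (26.5 CPM per kb), Mcm5 (23.5 CPM per kb) and Mcm3 (21.99 CPM per kb), subunits of the MCM helicase that opens DNA at origins. Mki67, which encodes the chromosome coat protein Ki-67 used to mark dividing cells, was the most abundant mitotic member at 16.8 CPM per kb. Top2a, the topoisomerase that untangles sister chromatids, followed at 15.4 CPM per kb. At the low end stood Ccne2 (1.18 CPM per kb), an E-type cyclin of the G1 to S transition, Cenpf (1.09 CPM per kb), a kinetochore protein, and Cdc25c (0.419 CPM per kb), the phosphatase that activates Cdk1. Lengths are the union of annotated exons, which understates the level of genes with many rarely used exons.

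With the antibody to IL-35, 8 mitotic transcripts rose. Against IgG, 8 of 22 G2/M members were called higher (36.4%) and none lower, where 15.7% of all genes tested were called higher and 9.32% lower (25.0% either way). With library totals alone the balance turned: 2 G2/M members (9.09%) were called higher, against 10.4% of all genes higher and 22% lower. In the main scaling the 8 were Kif23, Mki67, Ccnb2, Cdk1, Aurka, Cdc20, Birc5 and Top2a, with folds from 1.12 to 1.78. The median log2 fold change was 0.25 over the G2/M members and 0.08 over the S members, against -0.02 over all genes. All 3 antibody libraries lay above all 3 IgG libraries for 12 of 22 G2/M members (54.5%) and for 5 of 18 S members (27.8%), where 20.9% of all genes did so.

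Kif23 (Entrez gene 71819, chr9:61917277-61946810 in GRCm38.p6) is the kinesin subunit of centralspindlin, the complex that bundles microtubules between separating chromosomes for cytokinesis. Its level was 27.6, 27.6 and 30.1 CPM in the IgG libraries and 34.8, 33.3 and 31.5 CPM with cGAMP. It was 49.2, 50.4 and 52.4 CPM with anti-IL-35 alone and 47.2, 48.2 and 47.8 CPM with both agents. The antibody libraries, alone or with cGAMP, lay far above the others, and the cGAMP libraries lay just above IgG without overlap. Kif23 was 1.78-fold higher with anti-IL-35 than with IgG (log2 0.83 ± 0.092, adjusted p = 2.35e-10), the largest change among the members. Mki67 (Entrez gene 17345, chr7:135689784-135716450) stood at 155, 154 and 150 CPM with IgG and at 187, 172 and 201 CPM with anti-IL-35. The groups did not overlap, and the change was 1.22-fold (log2 0.29 ± 0.055, adjusted p = 3.89e-05).

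The kinase that starts mitosis and a cyclin partner of it rose as well. Cdk1, that kinase (Entrez gene 12534, chr10:69335146-69352912), stood at 16.9, 16.5 and 15.9 CPM with IgG and at 22.3, 21.1 and 24.5 CPM with anti-IL-35 (log2 0.46 ± 0.14, adjusted p = 0.00906). Ccnb2, a B-type cyclin that binds Cdk1 (Entrez gene 12442, chr9:70407689-70421554), stood at 20.3, 17.9 and 19.3 CPM with IgG and at 24.8, 25.0 and 27.0 CPM with anti-IL-35 (log2 0.42 ± 0.13, adjusted p = 0.0100). Neither gene's groups overlapped. Ccnb1, the other B-type cyclin measured, was at 16.4, 14.8 and 12.5 CPM with IgG and at 17.0, 15.6 and 17.6 CPM with anti-IL-35, which overlapped (log2 0.20 ± 0.15, adjusted p = 0.379).

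The other calls were Aurka, Cdc20, Birc5 and Top2a. Aurka, a kinase of centrosomes and spindle poles, stood at 10.0, 9.86 and 10.7 CPM with IgG and at 14.5, 12.99 and 15.2 CPM with anti-IL-35 (log2 0.48 ± 0.16, adjusted p = 0.0245). Cdc20, the activator that turns the anaphase-promoting complex on securin and cyclin B, stood at 19.998, 17.9 and 19.8 CPM with IgG and at 23.1, 24.9 and 27.8 CPM with anti-IL-35 (log2 0.39 ± 0.13, adjusted p = 0.0157). In both, every antibody library exceeded every IgG library. Birc5, the chromosomal passenger protein survivin, was 1.31-fold higher (adjusted p = 0.0395), and Top2a, at 128, 137 and 132 CPM with IgG and 158, 143 and 142 CPM with anti-IL-35, was 1.12-fold higher (adjusted p = 0.0327). Plk1 and Ube2c had log2 fold changes of 0.25 ± 0.13 and 0.25 ± 0.12 and were not called. The spindle checkpoint genes Bub1 and Bub1b were the G2/M members with log2 fold changes below 0, at -0.23 and -0.08, and were not called either.

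**Figure D2:**
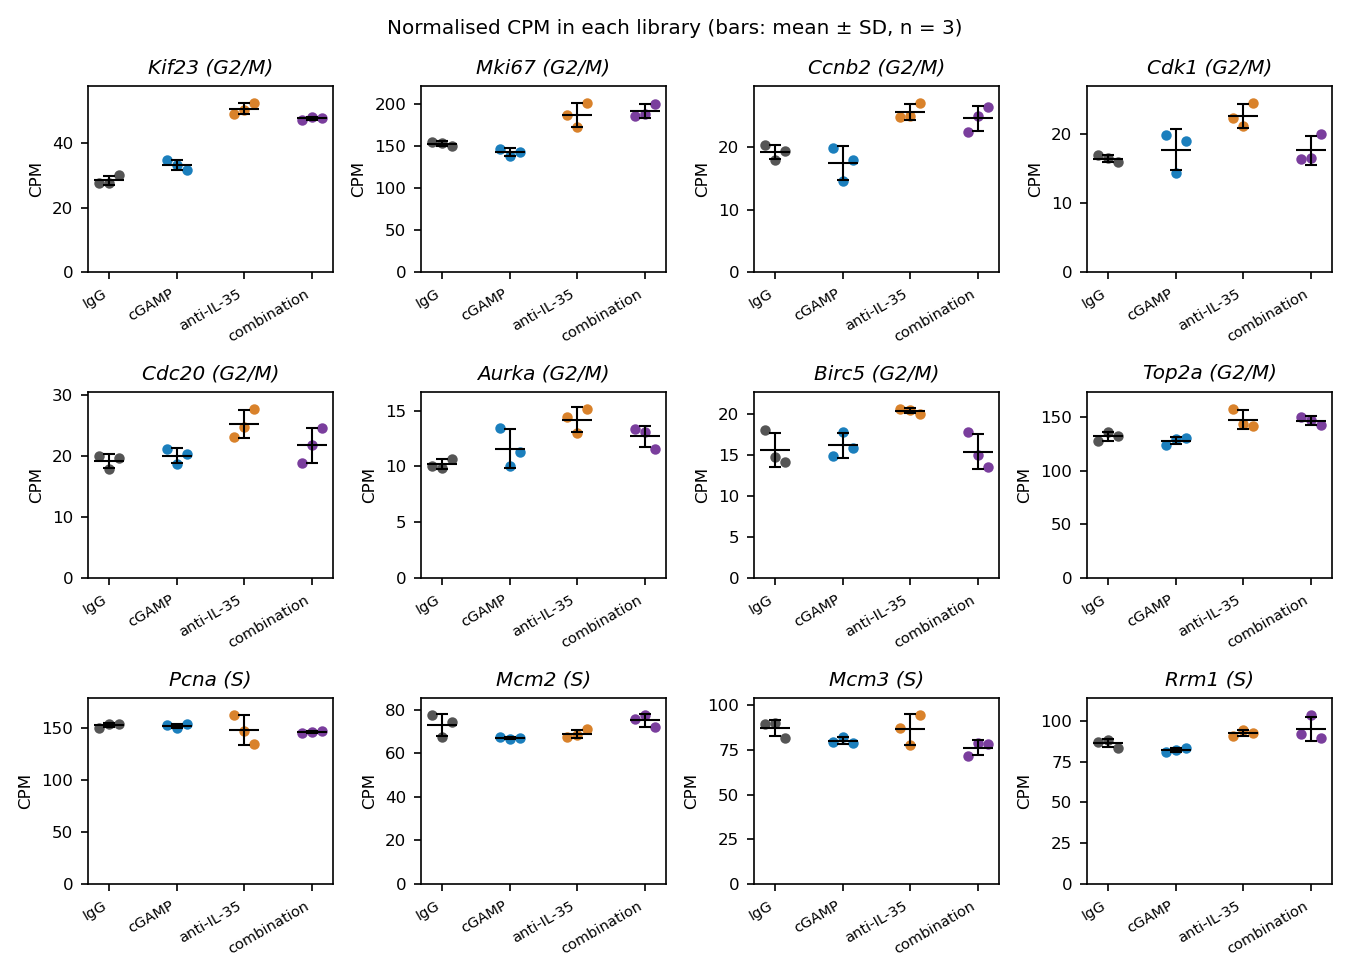
TMM-scaled CPM (vertical axis, from 0) of 12 members in each library by group, as points, with the mean ± SD of 3 libraries as bars. Kif23, Mki67 and Ccnb2 lie higher in all anti-IL-35 and combination libraries than in all IgG libraries, while the Pcna values of IgG and anti-IL-35 overlap.

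No S phase member was called with anti-IL-35 in the main edgeR fit or by DESeq2, and 2 of 18 had an unadjusted p under 0.05, both higher. Log2 fold changes of the S members ran from -0.09 to 0.30, and 14 of 18 lay above 0. Without IgG replicate 1, Rrm2 was called higher (5.56% of S members, against 13% of all genes called higher). Pcna was at 151, 154 and 154 CPM with IgG and at 163, 147 and 135 CPM with anti-IL-35, a wide antibody range that spanned the IgG values (log2 -0.05 ± 0.057, adjusted p = 0.629). Mcm2, an MCM helicase subunit, was at 77.4, 67.5 and 74.4 CPM with IgG and at 67.4, 68.2 and 71.0 CPM with anti-IL-35, which overlapped (log2 -0.09 ± 0.072, adjusted p = 0.437). Whether the S and G2/M sets differ in their response was not tested, since members share libraries.

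Scaling and single libraries changed how many members were called with anti-IL-35. With library totals alone 4 members were called, Kif23 and Mki67 higher and Mcm2 and Pcna lower. That was 5% of members each way, against 10.4% and 22% of all genes. With no filter on low counts 5 were called, all higher (12.5% of members, against 10.3% of all genes called higher). Scaling on 9 NK receptor transcripts called 6, all higher (15%, against 13.2% of all genes), and lost Birc5 and Top2a. Without IgG replicate 2 the count was 4, all higher (10% of members, against 13.4% of all genes called higher). Without anti-IL-35 replicate 1 or replicate 3 it was 5, all higher (12.5% of members, against 13.2% and 14.1% of all genes). In these 3 fits the share of members lay below that of all genes. Kif23 and Mki67 kept their calls in 21 of 21 alternatives, Cdk1 in 20, Ccnb2 in 19, Cdc20 in 18, Aurka and Top2a in 15 and Birc5 in 13. These 21 include fits that leave out a cGAMP or combination library, which is not part of this comparison, and no call was lost in those fits. Without IgG replicate 2, adjusted p was 0.0634 for Ccnb2, 0.0884 for Cdc20, 0.0849 for Aurka and 0.142 for Birc5. Without anti-IL-35 replicate 1 it was 0.0823 for Aurka, 0.114 for Birc5 and 0.376 for Top2a, and without anti-IL-35 replicate 3 it was 0.0835 for Aurka, 0.088 for Cdc20 and 0.0585 for Birc5. Without IgG replicate 1 it was 0.0785 for Aurka and 0.152 for Top2a, without IgG replicate 3 it was 0.188 for Birc5 and 0.0898 for Top2a, and without anti-IL-35 replicate 2 it was 0.091 for Birc5.

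Neutrophil transcripts moved in the same direction as the mitotic set. All 11 neutrophil precursor markers were called higher with anti-IL-35 than with IgG, and their summed level went from 2021 to 2094 CPM with IgG to 8328 to 8428 CPM. Mature neutrophil markers went from 3666 to 3820 CPM to 15572 to 16946 CPM, with all 10 called higher. B cell markers moved the other way, from 13859 to 14195 CPM to 6059 to 6128 CPM, with 11 of 12 called lower. T cell markers summed to 0.735 times the IgG mean (10 of 12 called lower) and macrophage and monocyte markers to 0.798 times (10 of 12 lower, 1 higher), and germinal centre and plasma cell markers stood at 0.713 times (4 of 13 lower, 3 higher). NK markers summed to 6924 to 7001 CPM with IgG and 6775 to 7240 CPM with anti-IL-35. The part of these cells in the member changes was not tested. Left out of the fit, 262 immunoglobulin genes and 107 marker genes changed no member's call in any comparison. That fit keeps the members' own reads from every kind of cell, so it cannot show the part of these cells.

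**Figure D3:**
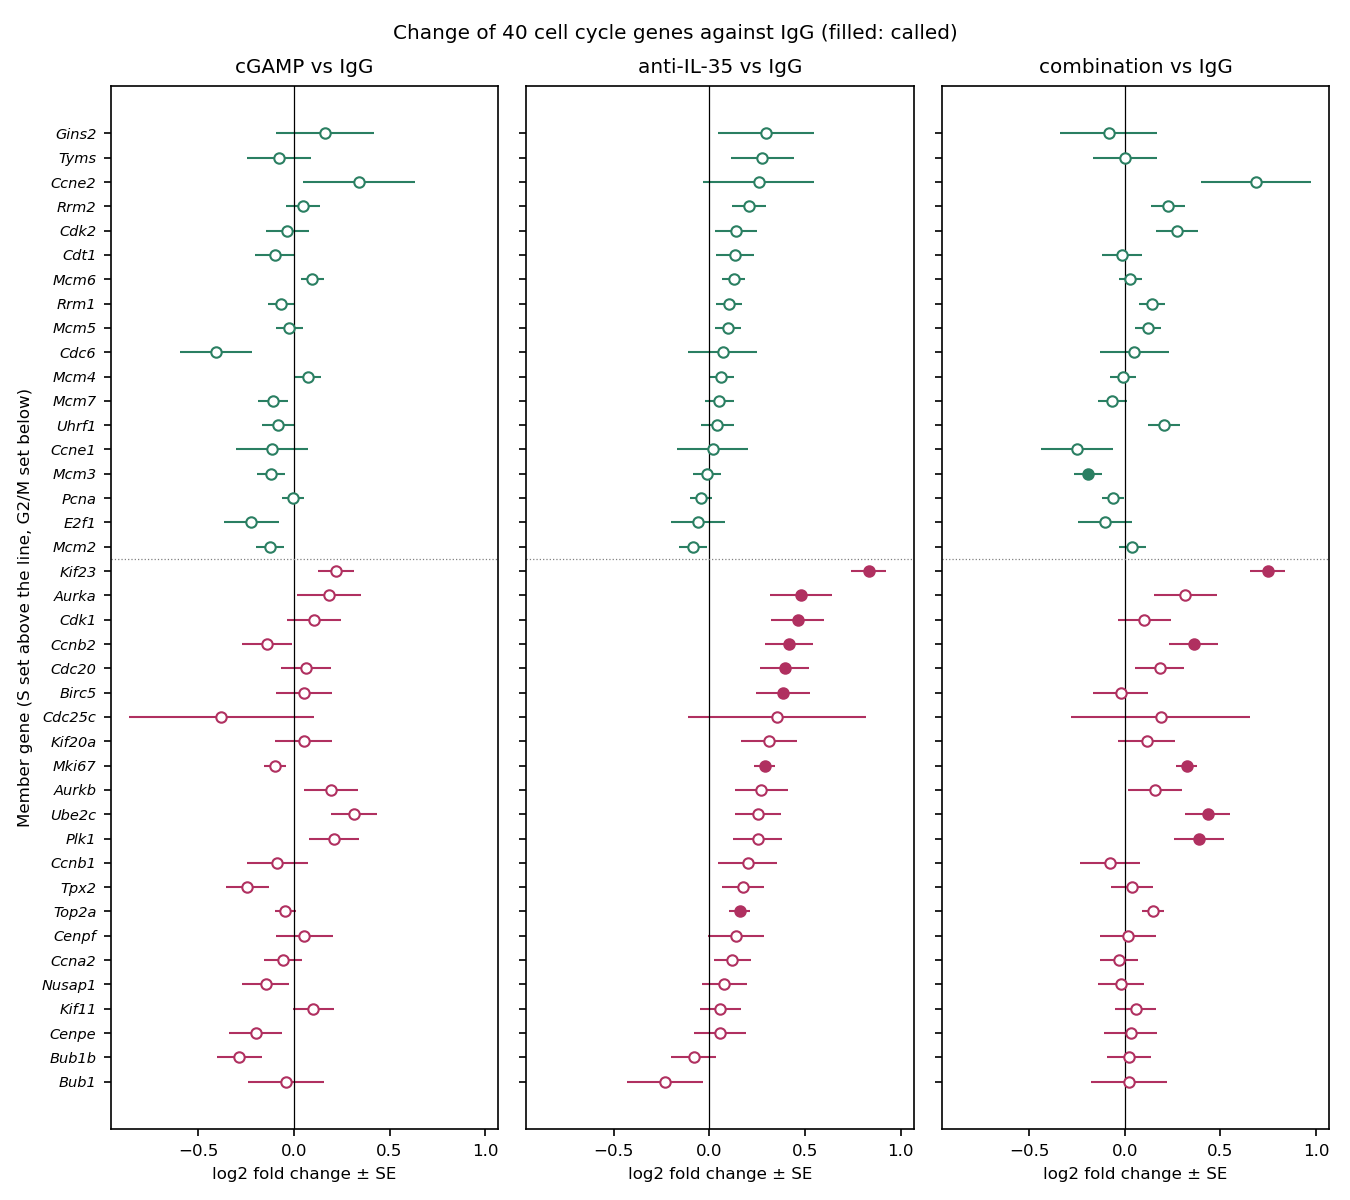
Log2 fold change ± SE (horizontal axis) of the 40 members against IgG for cGAMP, anti-IL-35 and the combination, with S members above the dotted line and G2/M members below it, each sorted by the anti-IL-35 value. Filled points were called, and there are 0 for cGAMP, 8 for the antibody and 6 for both agents.

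With the combination, 5 of 22 G2/M members were called higher than with IgG (22.7%) and none lower, against 15.7% of all genes called higher and 7.5% lower (23.2% either way). With library totals alone 2 G2/M members (9.09%) were called higher, against 9.59% of all genes higher and 23.8% lower. In the main scaling, among all 40 members 12.5% were called higher, below the share of all genes. The comparisons with IgG share the same control libraries. Kif23 was 1.68-fold higher (log2 0.75 ± 0.093, adjusted p = 5.89e-09) and Mki67, at 186, 188 and 201 CPM in the combination libraries, was 1.25-fold higher (log2 0.32 ± 0.055, adjusted p = 6.53e-06). Neither overlapped with IgG. All combination libraries lay above all IgG libraries for 31.8% of G2/M and 33.3% of S members, against 21.6% of all genes, and below them for 11.1% of S members, against 17.2% of all genes.

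The next smallest p-values with the combination were those of Ube2c and Plk1. Ube2c, the ubiquitin-conjugating enzyme of the anaphase-promoting complex, stood at 22.9, 24.0 and 20.5 CPM with IgG and at 33.3, 29.7 and 27.9 CPM with the combination (log2 0.43 ± 0.12, adjusted p = 0.00457). Plk1, the polo kinase of mitotic entry and spindle assembly, stood at 17.8, 20.6 and 18.2 CPM with IgG and at 24.6, 21.3 and 28.1 CPM with the combination (log2 0.39 ± 0.13, adjusted p = 0.0218). Ccnb2 stood at 22.5, 25.0 and 26.3 CPM with the combination (log2 0.36 ± 0.13, adjusted p = 0.0322). In all 3 genes the combination libraries lay above the IgG libraries. Adjusted p for Plk1 was 0.100, 0.0877 and 0.170 without IgG replicate 1, IgG replicate 3 and combination replicate 3, and for Ccnb2 it lay between 0.0593 and 0.141 without IgG replicate 2 or 3, anti-IL-35 replicate 1, or combination replicate 2 or 3. Top2a, at 150, 148 and 142 CPM, also lay above IgG without overlap but missed the threshold (log2 0.15 ± 0.057, adjusted p = 0.0500032). Ccnb1, at 12.5, 14.4 and 14.4 CPM, overlapped with IgG (adjusted p = 0.784).

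Of the S members, Mcm3 was called lower with the combination. It was at 89.5, 90.1 and 81.9 CPM with IgG and at 71.5, 79.0 and 78.1 CPM with the combination, which did not overlap (log2 -0.19 ± 0.073, adjusted p = 0.0473). This call was lost in 7 of 21 alternatives, among them the omission of IgG replicate 1 or replicate 2 and of each combination library (adjusted p from 0.0531 to 0.205), and the value reversed to 0.0045 when libraries were scaled on 9 NK receptor transcripts. Pcna was at 146, 146 and 148 CPM, below all IgG libraries by a small margin (log2 -0.06, adjusted p = 0.498), and Mcm2 at 75.9, 77.6 and 72.0 CPM (adjusted p = 0.757). The largest change in the S set was that of Ccne2, at 3.51, 2.77 and 3.49 CPM with IgG and 5.17, 5.24 and 5.33 CPM with the combination. Its groups did not overlap, and it was not called (log2 0.69 ± 0.29, adjusted p = 0.0792). Cdk2 and Rrm2 were called higher in the fit of the compared groups alone (11.1% of S members, against 17.9% of all genes called higher). Rrm2 was also called higher without IgG replicate 1, and Cdk2 without anti-IL-35 replicate 3 or combination replicate 2. In each of these fits that was 5.56% of S members, against 13.2%, 16.3% and 13.6% of all genes. NK receptor scaling raised the count for the combination from 6 to 16, with 8 of each set higher (40% of members), against 29.6% of all genes higher under that scaling. Neutrophil precursor markers summed to 7954 to 8047 CPM and NK markers, 8 of 16 called lower than with IgG, to 6395 to 6529 CPM in these libraries, and their part in the result was not tested.

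No member was called with cGAMP alone: edgeR and DESeq2 both gave 0 of 40, where 12.9% of all genes were called, 9.37% higher and 3.56% lower. The libraries of cGAMP and IgG did not overlap for 7.5% of members in the higher direction and 15% in the lower direction, against 18.1% and 11.1% of all genes. At an unadjusted p under 0.05 there were 5 members. Ube2c, at 32.7, 24.3 and 26.8 CPM, lay above all IgG libraries (log2 0.31 ± 0.12, adjusted p = 0.0801), as did Kif23 (log2 0.22 ± 0.095, adjusted p = 0.134). The other 3 had negative values, namely Cdc6, which loads the MCM helicase (log2 -0.41 ± 0.19), Bub1b (log2 -0.28 ± 0.12) and the spindle assembly factor Tpx2 (log2 -0.24 ± 0.11). Mki67 stood at 147, 139 and 143 CPM, below all IgG libraries (log2 -0.10 ± 0.056, adjusted p = 0.302). The median log2 fold change was -0.07 in the S set and 0.00 in the G2/M set, against 0.02 over all genes. Top2a, Pcna, Ccnb1 and Mcm2 had log2 fold changes of -0.04, -0.01, -0.09 and -0.13, and their libraries overlapped with IgG. Under library totals alone, and under NK receptor scaling, 5 members were called and all were lower (12.5% of members). Of all genes, 9% and 8.19% were called lower in these scalings. In the main scaling 9 of 16 NK markers were called higher with cGAMP (56.2%, against 9.37% of all genes). NK receptor scaling moved the median log2 fold change of all genes to -0.13. Without cGAMP replicate 2, Ube2c was called higher (2.5% of members, against 7.45% of all genes). Neutrophil precursor markers summed to 4959 to 5006 CPM with cGAMP, 2.42-fold the IgG mean, and their part in these values was not tested.

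With the antibody added to cGAMP, 4 mitotic genes were higher than with cGAMP alone. Of 22 G2/M members 4 were called higher (18.2%), as were 2 of 18 S members (11.1%), and none was called lower, against 9.99% of all genes called higher and 4.83% lower (14.8% either way). Mki67 changed by log2 0.42 ± 0.055 (adjusted p = 5.17e-08), Kif23 by log2 0.53 ± 0.092 (adjusted p = 1.98e-05), Ccnb2 by log2 0.50 ± 0.13 (adjusted p = 0.00388) and Top2a by log2 0.19 ± 0.057 (adjusted p = 0.0131). Ccnb2 was at 19.9, 14.5 and 17.9 CPM and Top2a at 124, 129 and 131 CPM with cGAMP, and for none of the 4 did the groups overlap. All combination libraries lay above all cGAMP libraries for 31.8% of G2/M and 33.3% of S members, against 15.9% of all genes. Neutrophil markers moved with this comparison, with 11 of 11 precursor and 10 of 10 mature neutrophil markers called higher with the combination than with cGAMP, and their part in the result was not tested. The S members were Uhrf1 and Rrm1. Uhrf1, which guides the maintenance DNA methyltransferase to replicated DNA, stood at 49.2, 44.1 and 45.1 CPM with cGAMP and at 56.4, 59.7 and 52.5 CPM with the combination (log2 0.29 ± 0.086, adjusted p = 0.0163). Rrm1, the large subunit of ribonucleotide reductase, stood at 81.1, 82.1 and 83.2 CPM with cGAMP and at 92.2, 104 and 89.5 CPM with the combination (log2 0.21 ± 0.067, adjusted p = 0.0243). The combination libraries of both genes lay above those of cGAMP. Without cGAMP replicate 2 the count was 3, all higher (7.5% of members, against 8.52% of all genes called higher). In that fit adjusted p was 0.0574 for Ccnb2, 0.0782 for Uhrf1 and 0.0636 for Rrm1. Adjusted p also passed 0.05 without combination replicate 2 (0.228 for Rrm1, 0.104 for Uhrf1), cGAMP replicate 1 (0.07 for Rrm1, 0.0662 for Top2a), cGAMP replicate 3 (0.0611 for Uhrf1) and combination replicate 1 (0.0647 for Top2a). NK receptor scaling raised the count to 32, all higher (80% of members, against 48.9% of all genes higher and 0.55% lower under that scaling), with 13 of 16 NK markers called lower in the main scaling. That scaling moved the median log2 fold change of all genes in this comparison to 0.34.

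Adding cGAMP to the antibody gave no called member by edgeR or DESeq2, where 5.85% of all genes were called (3.67% higher, 2.17% lower), and 3 members had an unadjusted p under 0.05, all negative. These were Birc5 (log2 -0.41 ± 0.14, adjusted p = 0.0853), Cdk1 (log2 -0.36 ± 0.14, adjusted p = 0.130) and Mcm3 (log2 -0.18 ± 0.072, adjusted p = 0.161). Birc5 was at 20.7, 20.5 and 20.1 CPM with anti-IL-35 and at 17.8, 14.99 and 13.5 CPM with the combination, and Cdk1 at 16.3, 16.4 and 19.999 CPM with the combination. In both genes all combination libraries lay below the anti-IL-35 libraries, as they did for 27.3% of G2/M members and 9.54% of all genes. They lay above them for 11.1% of S members and 10.2% of all genes. Mki67 (log2 0.03 ± 0.054, adjusted p = 0.831) overlapped between these groups, and Kif23 (log2 -0.09 ± 0.089, adjusted p = 0.717) was lower in every combination library but not called. Mcm3 was called lower without anti-IL-35 replicate 2 and Birc5 lower without combination replicate 1, while NK receptor scaling called 8 members higher (20%), near the 20.8% of all genes called higher. Between the same groups B cell markers went from 6059 to 6128 CPM to 15144 to 15468 CPM.

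The interaction asks whether the effect of cGAMP differs without and with the antibody. edgeR and DESeq2 called 0 of 40 members, where 10.4% of all genes were called (3.62% higher, 6.78% lower), and 6 members had an unadjusted p under 0.05. Kif23 (log2 -0.31 ± 0.13, adjusted p = 0.149), Cdk1 (log2 -0.47 ± 0.20, adjusted p = 0.144), Birc5 (log2 -0.46 ± 0.20) and Mcm6 (log2 -0.19 ± 0.086) had negative values, and Bub1b (log2 0.39 ± 0.17) and Mcm2 (log2 0.25 ± 0.10, adjusted p = 0.131) had positive ones. Cdk1 was called without cGAMP replicate 2, Mcm2 with library totals alone, and 12 members, all positive, with NK receptor scaling (30%, against 26.9% of all genes).

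Summed over the set, G2/M transcripts reached 1.18 times the IgG mean with anti-IL-35 and 1.1499 times with the combination. S transcripts reached 1.04 and 1.02 times. A sum weighs abundant members most. Over single G2/M members, the median fold against IgG was 1.19 for the antibody alone but 1.08 for both agents. In the latter comparison 18 of 22 members had log2 fold changes above 0. Mean levels of Mki67, Top2a and Kif23 were 153, 132 and 28.4 CPM in IgG libraries. They were 191, 147 and 47.7 CPM in combination libraries. The G2/M sum was 684, 686 and 678 CPM with IgG and 679, 652 and 689 CPM with cGAMP. It was 824, 779 and 822 CPM with anti-IL-35 alone and 770, 782 and 803 CPM with both agents. The antibody groups lay above the other groups in every library. The S sum was 1021, 1030 and 1017 CPM with IgG and 1081, 1036 and 1078 CPM with anti-IL-35, but with library totals alone its mean was lower with anti-IL-35 (1042.5 CPM) and the combination (1002 CPM) than with IgG (1095 CPM). The G2/M mean stayed higher with anti-IL-35 under that scaling, at 791 CPM against 731 CPM.

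The difference between the mean log2 CPM of the S and G2/M members within a library depends little on how libraries are scaled. It was 0.777 ± 0.0262 (SD, n = 3) with IgG and 0.747 ± 0.0261 with cGAMP. It was 0.621 ± 0.0180 with anti-IL-35 alone and 0.669 ± 0.0562 with both agents. All 3 anti-IL-35 libraries (0.602, 0.623 and 0.638) lay below the lowest IgG library (0.756). The combination libraries ranged from 0.614 to 0.727, which overlapped with cGAMP. No test was made of this score, since its members were chosen with results known.

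**Figure D4:**
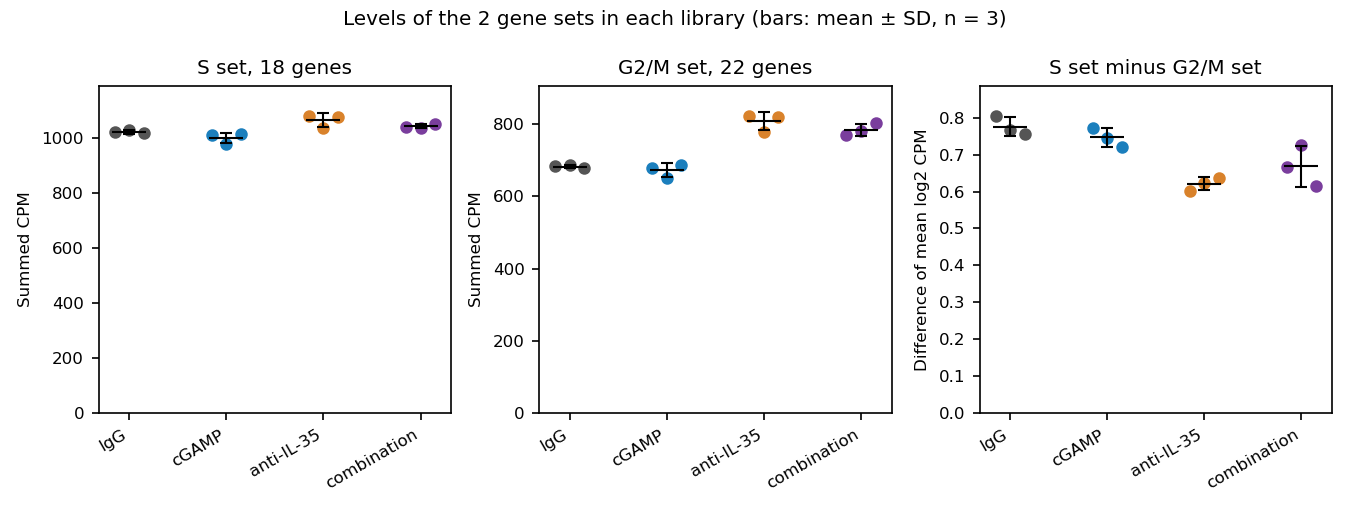
Summed CPM of the 18 S members, summed CPM of the 22 G2/M members, and the S minus G2/M difference of mean log2 CPM (vertical axes, from 0) in each library, with mean ± SD of 3 libraries. The G2/M sum lies at 779 to 824 CPM with anti-IL-35 against 678 to 686 CPM with IgG, and the difference is smaller with anti-IL-35.

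Members varied together weakly over the 12 libraries. The median Pearson r between pairs of G2/M members was 0.291, between pairs of S members 0.0794, and between the sets 0.202. After removal of group means these medians were 0.0117, -0.0135 and 0.0187. The pairs share libraries and depth, and the values are a description.

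Other genes of the cell cycle, from 7 lists, were counted in the same comparisons, with the 40 members left out. Of 54 other mitotic genes, 10 were called higher with anti-IL-35, 7 with the combination and 3 with cGAMP against IgG, and none lower. As shares these were 18.5%, 13% and 5.56%, against 15.7%, 15.7% and 9.37% of all genes called higher, so they lay near or below the background. Their median log2 fold changes were 0.18, 0.10 and -0.02. Lmnb1, a nuclear lamina protein that is taken apart in mitosis, went from 153 ± 5.51 CPM (SD, n = 3) with IgG to 242 ± 4.92 CPM with anti-IL-35 and 264 ± 18.3 CPM with the combination (adjusted p = 4.37e-15 and 1.61e-17). Cks2, a subunit of cyclin-dependent kinases, went from 18.7 ± 0.213 CPM to 34.9 ± 4.16 and 31.8 ± 2.08 CPM (adjusted p = 1.19e-08 and 6.84e-07). Hmgb2, a chromatin protein abundant in dividing cells, rose in all 3 treated groups, from 263 ± 16.1 CPM to 311 ± 4.61 CPM with cGAMP, 403 ± 33.2 CPM with anti-IL-35 and 354 ± 13.04 CPM with the combination. Of 45 other replication genes, 1 was higher and 2 were lower with anti-IL-35 (2.22% and 4.44%, against 15.7% and 9.32% of all genes). Among the lower was Pole, the leading strand polymerase (log2 -0.50 ± 0.13, adjusted p = 0.00213). With cGAMP 2 were lower (4.44%, against 3.56% of all genes) and none higher, where 9.37% of all genes were higher. With the combination 1 was higher and 1 lower (2.22% each way, against 15.7% and 7.5% of all genes). Replication-dependent histone genes gave 1 call (H2bc8, higher) among 17 tested in each of these antibody groups against IgG (5.88%, against 15.7% of all genes higher). H2bc8 stood at 2.72 ± 0.397 CPM with IgG and 5.01 ± 1.06 CPM with anti-IL-35.

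Among regulators of entry into the cycle, the calls were near the background in number. Of 19 E2F, DREAM and MuvB regulators, 4 were called higher with anti-IL-35, 4 with the combination and 2 with cGAMP, and none lower. As shares called higher these were 21.1%, 21.1% and 10.5%, against 15.7%, 15.7% and 9.37% of all genes. E2f8, a repressor of E2F targets that is itself induced late in the cycle, rose from 17.5 ± 2.86 CPM to 30.002 ± 2.57 CPM with anti-IL-35 (log2 0.78 ± 0.13, adjusted p = 3.26e-06). E2f2, an activator, rose by log2 0.40 ± 0.070 (adjusted p = 7.59e-06), and Foxm1, the activator of mitotic genes, by log2 0.33 ± 0.12 (adjusted p = 0.0359). Of 10 G1 cyclins and kinases, 2 were called higher and 1 lower with anti-IL-35 (20% and 10%, against 15.7% and 9.32% of all genes). Ccnd3, the D-type cyclin of lymphoid and myeloid cells, rose from 377 ± 6.53 CPM to 537 ± 34.98 CPM with anti-IL-35 (adjusted p = 8.83e-14). The phosphatase gene Cdc25a rose too (log2 0.64 ± 0.10, adjusted p = 2.57e-06). Ccnd1, another D-type cyclin, fell from 45.5 ± 6.34 CPM to 27.9 ± 2.31 CPM (adjusted p = 2.62e-07).

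Some inhibitors of division were among the called genes. Of 18 CDK inhibitors and checkpoint genes, 6 were called higher and 2 lower with anti-IL-35 (33.3% and 11.1%, against 15.7% and 9.32% of all genes). For the combination 6 were higher and 1 lower (33.3% and 5.56%, against 15.7% and 7.5% of all genes). For cGAMP 4 were higher (22.2%, against 9.37% of all genes) and 0 lower. Gadd45a, a stress-induced inhibitor of the cycle, rose from 14.9 ± 2.65 CPM with IgG to 40.1 ± 5.42 CPM with anti-IL-35 and 41.2 ± 4.42 CPM with the combination (log2 1.43 ± 0.12 and 1.47 ± 0.12, adjusted p = 1.33e-13 and 7.74e-14). Cdkn2d, which encodes the Cdk4 and Cdk6 inhibitor p19, rose from 64.1 ± 0.998 CPM to 110 ± 8.04 CPM with anti-IL-35 (adjusted p = 5.15e-13). Cdkn1b, which encodes p27, rose by log2 0.40 ± 0.053 (adjusted p = 3.46e-08). Of 13 quiescence-associated genes of lymphocytes, 6 were called higher and 2 lower with anti-IL-35 (46.2% and 15.4%, against 15.7% and 9.32% of all genes). The counts were 6 higher (46.2%, against 15.7% of all genes) and 0 lower for the combination. They were 7 higher (53.8%, against 9.37% of all genes) and 0 lower for cGAMP. Among the genes called higher with anti-IL-35 were the antiproliferative gene Btg1 (log2 0.53 ± 0.036, adjusted p = 4.30e-17) and Slfn2 (log2 0.70 ± 0.043, adjusted p = 9.85e-19). Klf2, a quiescence factor of lymphocytes, was another (log2 0.63 ± 0.047, adjusted p = 1.86e-15). The neutrophil marker sums rose in the same groups, and their part in these changes was not tested.

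Across all groups, erythroid markers summed to 600 to 629 CPM with IgG and to 1344 to 1378 CPM with cGAMP. They reached 711 to 755 CPM with anti-IL-35 and 1182 to 1231 CPM with the combination. Germinal centre and plasma cell markers ranged over all libraries from 1268 to 2011 CPM, T cell markers from 443 to 633 CPM and dendritic cell markers from 546 to 652 CPM, with none of their genes at 0. Their part in the member values was not tested.

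**Figure D5:**
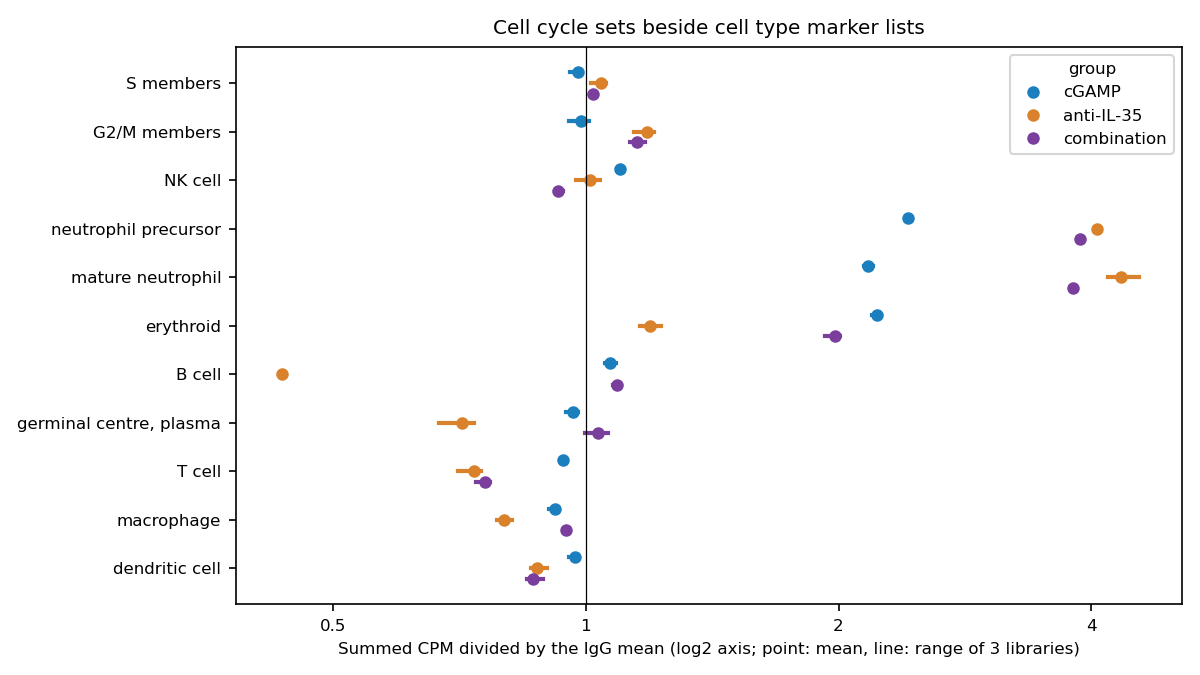
Summed CPM of the S and G2/M members and of 9 cell type marker lists, divided by the IgG mean (horizontal log2 axis), with the mean as a point and the range of 3 libraries as a line. G2/M members reach 1.18 times the IgG mean with anti-IL-35, where neutrophil precursor markers reach 4.07 and B cell markers 0.434.

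Some members share exon bases with other annotated genes. In the GENCODE vM21 annotation this held for 12 of 40 members, 11 of them with a gene on the opposite strand, and the strand setting of the counts was not given. The shared part was largest for Gins2 (67.3% of exon bases, with Gse1), Kif20a (29.3%, with Cdc23) and Ube2c (22.8%, with the muscle gene Tnnc2), and if strand was not used in counting, reads of these pairs could not be told apart there. Kif23, Mki67, Ccnb2, Cdk1, Aurka and Birc5 shared no exon bases with another gene.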

How the data were processed

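The authors deposited 1 table of raw read counts by gene, which was the input here. Per the submitters' processing notes, STAR 2.7.7a, SAMtools 1.15 and featureCounts were used with build mm10. The sources used here do not give the annotation, the strand setting or how multiply mapped reads were treated. Per the labels, RNA was extracted with an RNeasy kit and libraries were made with NEBNext Ultra reagents. Every one of the 12 columns was matched to a library by its title.

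The model was edgeR 4.0.16 (with limma 3.58.1) under R 4.3.3. Genes passed filterByExpr by group at a minimum count of 10, libraries were scaled by TMM, and 1 robust quasi-likelihood fit held all 4 groups, with 8 residual degrees of freedom and a common biological coefficient of variation of 0.0958. P-values were adjusted by Benjamini-Hochberg over 14182 genes in each of 6 comparisons. SE is the log2 fold change divided by the root of the F statistic. The fit was tested on simulated data. Log2 CPM used a prior count of 2. Within groups, chi-square statistics divided by their degrees of freedom were 3.27 to 11.8 between pairs of libraries, above sampling noise, and each library was counted once. IDs without a symbol (1049) held 0.251% of counts. Counting gives no correction for duplicated PCR reads.

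The members, lists and tests were chosen with earlier results of these data known. All members may be named, with library values for up to 6 called members with the smallest p per comparison and always for Mki67, Top2a, Pcna, Ccnb1 and Mcm2. From each other list, up to 4 called genes with the smallest p per comparison were named. Library values of Ccne2 and Birc5 were added after their values were seen. Histone symbols were matched through RefSeq synonyms (17 genes), and the haemoglobin gene Hbb-bt was not matched. Coordinates and promoters are from RefSeq GRCm38.p6, and exon lengths from GENCODE vM21. Alternatives were RLE size factors, library totals alone, scaling on 9 NK receptor transcripts, DESeq2 1.42.0, no filter, 1 CPM in 6 libraries, the groups compared alone, a replicate block, a fit without immunoglobulin and other-cell marker genes, and leaving out each library.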

Additional observations from a re-analysis of the deposited data

Results flagged for a closer look

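No member was flagged. In the cell cycle lists beside the members, 15 named genes were flagged because the effect of cGAMP differed without and with the antibody by the interaction term of edgeR's quasi-likelihood test. Values are log2 differences of the 2 effects, negative where cGAMP had a lower effect in the presence of the antibody. Of 176 genes tested in these lists, 17 were called in this test (9.66%), near the 10.4% of all genes. The number over all lists together is therefore not a result about them, and the lists differed. Of 13 quiescence-associated genes, 6 were called with negative values (46.2%, against 6.78% of all genes) and 0 with positive ones. Of 45 other replication genes, 1 was positive and 1 negative (2.22% each way, against 3.62% and 6.78% of all genes), and of 17 histone genes 0 were called.

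Among replication and mitotic genes these were Pole (0.65), Rpa1 (-0.30), Hmgb2 (-0.43), Cdc25b (-0.37) and Espl1 (0.59). Among E2F partners and G1 cyclins they were Rbl2 (-0.25), Tfdp1 (-0.34) and Ccnd3 (-0.22). Among CDK inhibitors and checkpoint genes they were Cdkn2d (-0.51), Gadd45a (-0.61) and Cdkn1a (0.67). Among quiescence-associated genes they were Btg1 (-0.35), Klf2 (-0.42), Slfn2 (-0.32) and Tob1 (-0.58). Hmgb2 had the smallest adjusted p among the mitotic and replication genes (8.83e-06), and Btg1 among the quiescence-associated genes (6.09e-07). All 11 neutrophil precursor markers had negative interaction values that were called, and their part in these results was not tested.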

How the results depend on the processing

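Of 5000 values of members under the alternatives, 4851 kept their direction and side of the threshold, 56 lost a call, 83 gained one and 10 reversed. Most of these values had no call to lose. The main fit called 8 of 40 members for anti-IL-35 against IgG, 6 for the combination against IgG and 6 against cGAMP. It called no member in the other comparisons. DESeq2, RLE size factors and the fit without immunoglobulin and other-cell marker genes changed no call of a member. The depth limits low members most: Cdc25c had as few as 6 counts in a library.

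With library totals alone, 5 members were called for cGAMP against IgG, 4 for anti-IL-35 against IgG and 1 for the interaction. The median of all genes moved to -0.09, -0.15 and -0.17 for cGAMP, anti-IL-35 and the combination against IgG under this scaling. Under NK receptor scaling, counts against IgG were 5 for cGAMP, 6 for anti-IL-35, with Birc5 and Top2a lost, and 16 for the combination. Counts were 32 for the combination against cGAMP, 8 against anti-IL-35 and 12 for the interaction. The reversed values under that scaling were Mcm3 at 0.0045 for the combination against IgG, and against cGAMP Mcm3 at 0.28, Mcm4 at 0.27, Mcm6 at 0.28, Pcna at 0.29, Cdk1 at 0.34 and Kif11 at 0.30. Against anti-IL-35 they were Pcna at 0.19 and Top2a at 0.19, and for the interaction Pcna at 0.34. The median of all genes moved to 0.18, 0.34, 0.20 and 0.33 in these comparisons. With no filter on low counts, 5 members were called higher for anti-IL-35 (12.5%, against 10.3% of all genes called higher), and 19275 genes were tested.

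Leaving out each library gave counts of 0 to 1 for cGAMP, 4 to 8 for anti-IL-35 and 4 to 8 for the combination against IgG. Counts were 3 to 7 for the combination against cGAMP, 0 to 1 against anti-IL-35 and 0 to 1 for the interaction. As shares called higher, members ran from 10% to 20% for anti-IL-35, against 13% to 15.5% of all genes. For the combination they ran from 7.5% to 17.5% against IgG (all genes 13.2% to 16.3%). Against cGAMP they ran from 7.5% to 17.5% (all genes 8.16% to 10.6%). Replicate numbers did not pair the libraries: deviations of same-numbered libraries correlated at -0.0247 to 0.038. The replicate block gave 0, 8, 5, 6, 0 and 0 calls in the 6 comparisons and lost Mcm3 for the combination.

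The S minus G2/M difference was 0.806, 0.774 and 0.647 with IgG, cGAMP and anti-IL-35 when Ccna2 was moved to the S set, and 1.34, 1.25, 1.13 and 1.25 with medians over members. The S sum was 1095 (IgG) and 1002 CPM (combination) with library totals, and 1014, 895 and 1186 CPM (IgG, cGAMP and combination) with NK receptor scaling. The G2/M sum was 731 and 755 CPM, and 677, 602 and 893 CPM, in the same order. The cause of these shifts beyond scaling was not tested.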
